A study of Mus musculus with 12 samples.

Results

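The clustered protocadherins are cell-surface adhesion proteins encoded by tandem gene arrays on mouse chromosome 18. Their rows were taken by symbol from a table of 25117 symbols, as every alpha, beta, gamma A, gamma B and C-type Pcdh gene that the table lists, and 58 members were found. There were 14 in the alpha cluster, 22 in the beta cluster and 22 in the gamma cluster, and the gamma members were 12 of type A, 7 of type B and 3 of the C type. On RefSeq GRCm38.p6, the assembly that mm10 names, they lay on chromosome 18 from position 36930285, where Pcdha1 starts, to position 37841873, where the gamma constant exons end.

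Polyadenylated RNA had been sequenced from mouse embryonic fibroblasts (MEFs), cultured connective tissue cells, in 12 libraries, 3 in each of 4 groups. All cells carried floxed Rbbp5 alleles (Rbbp5 flox/flox) and Cre at the Rosa26 locus (Rosa26 CRE +/+), so the wildtype cells carried both as well. The KO groups had been given tamoxifen for 7 days and the wildtype groups had not, so loss of the gene and exposure to tamoxifen cannot be told apart. Cultures were then kept for 16 hours in EBSS (Earle's balanced salt solution), which starves cells of amino acids and serum, or in full DMEM with 10% serum. The groups were RBBP5 KO in EBSS, RBBP5 KO in full medium, wildtype in EBSS and wildtype in full medium. The sample titles number the replicates as brep, which may stand for biological replicate. The numbered replicates are not stated to come from separate cultures or animals, so the p-values measure the spread between these libraries, which may be technical.

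Each alpha and gamma member has its own promoter and a large variable exon for the extracellular domain, which is spliced to constant exons that its cluster shares. Each beta member is a separate gene with its own single exon. In neurons a cell turns on a small, largely random set of these promoters, a choice that involves CTCF, cohesin and DNA methylation, and the combination on its surface binds the same combination on another cell. The C-type promoters differ in sequence from the others and are used more constantly. RBBP5 belongs to the shared core of the SET1 and MLL enzymes, and the mark they place, methylation of lysine 4 on histone H3, is found at active promoters.

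Rbbp5 itself was read first, as the check of the labels. In full medium its level was 7.47, 9.34 and 8.31 TPM (a share of the library's transcripts, corrected for transcript length) in KO libraries, against 26.2, 25.7 and 26.2 TPM in wildtype libraries. In EBSS it was 31.9, 24.6 and 23.0 TPM in the libraries labelled KO, against 12.4, 14.0 and 11.8 TPM in those labelled wildtype. In TPM the EBSS libraries therefore go against their labels, and every direction given for them below is a direction between labels. That Rbbp5 difference depends on the scaling. Its log2 change of TPM + 1 between EBSS labels was 0.99. It was 0.07 (limma adjusted p = 0.59) after median-of-ratios scaling, which sets the typical gene to no change. Between media under the wildtype label it was -0.98, and -0.02 after that scaling. The scaled value is still not the fall in EBSS that the KO label calls for. The libraries labelled wildtype in EBSS also stood apart in composition. The summed share of ribosomal protein genes was 31.6% to 34.1% there, against 14.6% to 18.3% in the other 9 libraries. Replicate 3 of that group listed 1122 of 12653 tested genes at 0, against 12 to 229 in the other 11 libraries. TPM keeps no read depth, so the precision of low values is unknown, and a value of 0 is given only as listed at 0.

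Of the 58 members, 23 reached a TPM of 1 in at least 1 library. They were 17 gamma members, 6 beta members and 0 alpha members. Only 3 members, Pcdhga1, Pcdhgb6 and Pcdhgc3, were at or above 1 TPM in all 12 libraries, and 7 alpha members were listed at 0 in all 12. In all, 30 members, those 7 included, stayed below 0.5 TPM in every library. The number at or above 1 TPM was 17, 17 and 16 in libraries labelled KO in EBSS and 6, 9 and 9 in KO libraries in full medium. It was 4, 5 and 8 in libraries labelled wildtype in EBSS and 17, 18 and 19 in wildtype libraries in full medium. In full medium the KO libraries thus did not overlap with the wildtype libraries in this number. The share of all genes at or above 1 TPM was not counted, so the number is a description. The median TPM of all tested genes was also lower, at 17.5, 19.8 and 19.7 in KO libraries, against 22.7, 22.5 and 22.9 in wildtype libraries.

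**Figure D1:**
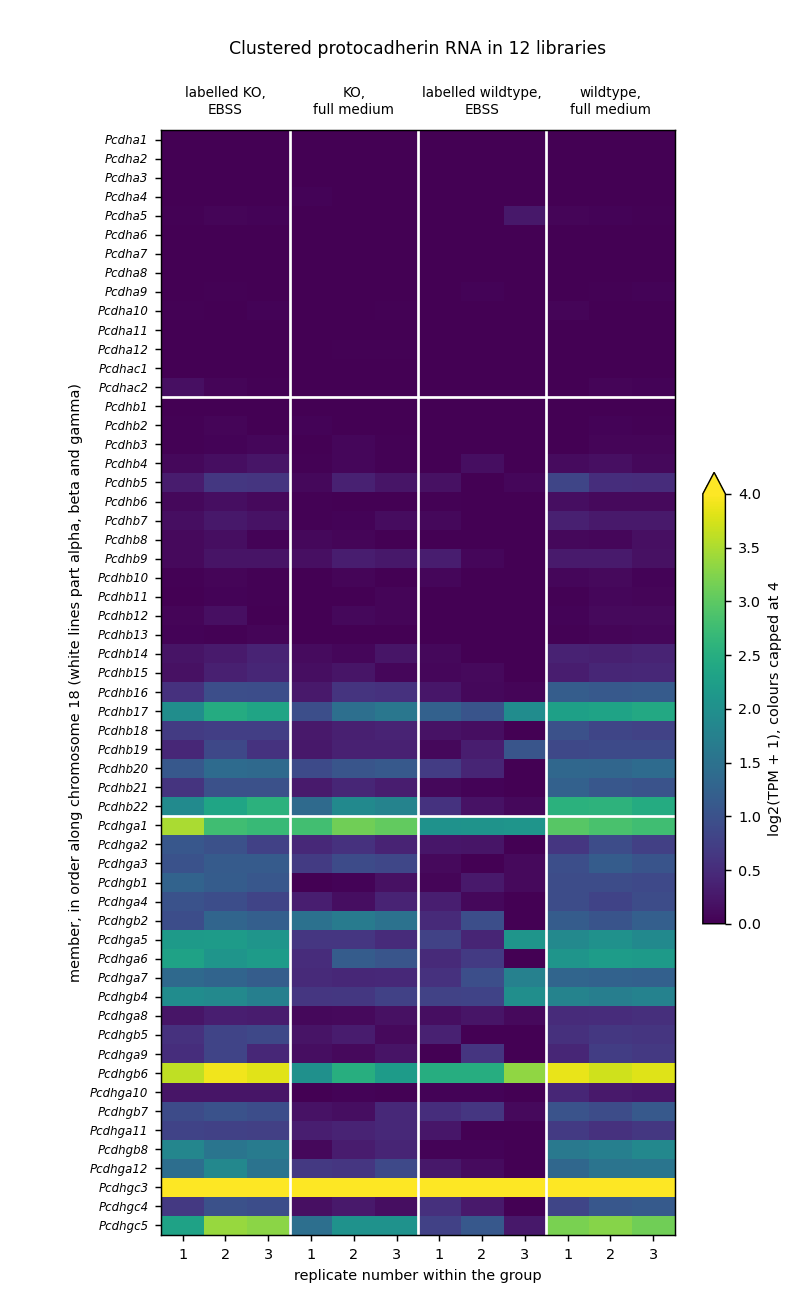
Colour gives log2(TPM + 1) of each of the 58 members (rows, in order along the chromosome) in each of the 12 libraries (columns, by group and replicate number), capped at 4. The alpha rows are dark throughout, the signal of the beta cluster lies in its last members, and Pcdhgc3 is above the cap in every library.

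The alpha cluster was close to silent in these cells. Its highest value was 0.201 TPM, for Pcdha5 in replicate 3 of the libraries labelled wildtype in EBSS. Pcdha5 had 0.0176, 0.0441 and 0.0228 TPM in libraries labelled KO in EBSS and 0.0394, 0.0292 and 0.0115 TPM in wildtype libraries in full medium, and it was listed at 0 in the other 5 libraries. Pcdhac2, an alpha C-type member, had 0.120, 0.0377 and 0.0191 TPM in libraries labelled KO in EBSS, and 0.0353 and 0.0276 TPM in replicates 2 and 3 of the wildtype libraries in full medium, and it was listed at 0 in the other 7 libraries. Each value is far below 1 TPM. Pcdha10 had 0.0186 and 0.0247 TPM in replicates 1 and 3 of those labelled KO in EBSS, 0.0185 TPM in replicate 3 of the KO libraries in full medium, and 0.0439 and 0.0022 TPM in replicates 1 and 2 of the wildtype libraries in full medium, with 0 listed in the other 7 libraries. Pcdha9 had 0.0185 TPM in replicate 2 of those labelled KO in EBSS, 0.0261 TPM in replicate 2 of those labelled wildtype in EBSS, and 0.0134 and 0.0243 TPM in replicates 2 and 3 of the wildtype libraries in full medium, with 0 listed in the other 8 libraries. Pcdhac1, the other alpha C-type member, was listed at 0 in every library. No alpha member entered the tests.

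Pcdhgc3, a C-type gamma member (RefSeq start 37806410), was the most abundant clustered protocadherin in every library. It had 125, 143 and 134 TPM in libraries labelled KO in EBSS and 67.5, 89.8 and 87.6 TPM in KO libraries in full medium. It had 50.9, 50.7 and 37.8 TPM in libraries labelled wildtype in EBSS and 119, 122 and 126 TPM in wildtype libraries in full medium. The KO libraries were all below the wildtype libraries in full medium, and the order of the labels was the opposite in EBSS, again with no overlap. Pcdhgc3 alone made up 79.7%, 79.0% and 79.7% of the summed gamma TPM in KO libraries in full medium, against 70.3%, 70.6% and 71.2% in wildtype libraries in full medium.

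The other C-type gamma members were far less abundant. Pcdhgc5 had 3.96, 9.45 and 8.85 TPM in libraries labelled KO in EBSS and 1.75, 3.11 and 3.11 TPM in KO libraries in full medium. It had 0.707, 1.15 and 0.193 TPM in libraries labelled wildtype in EBSS and 8.15, 8.67 and 7.76 TPM in wildtype libraries in full medium. Replicate 1 of the libraries labelled KO in EBSS was well below its 2 partners, which were above all wildtype libraries in full medium. Pcdhgc4 had 0.125, 0.205 and 0.114 TPM in KO libraries in full medium, against 0.785, 1.13 and 1.19 TPM in wildtype libraries in full medium. It had 0.586, 0.990 and 0.916 TPM in libraries labelled KO in EBSS, against 0.466, 0.212 and a listed 0 in those labelled wildtype. Pcdhgc4 reached 1 TPM in too few libraries to be tested.

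Among the gamma A and B members, Pcdhgb6 and Pcdhga1 stood above the rest. Pcdhgb6 had 11.3, 14.1 and 13.1 TPM in libraries labelled KO in EBSS and 3.04, 4.71 and 3.56 TPM in KO libraries in full medium. It had 4.64, 4.61 and 9.06 TPM in libraries labelled wildtype in EBSS and 13.5, 12.2 and 13.0 TPM in wildtype libraries in full medium. Its KO and wildtype libraries in full medium lay far apart. Pcdhga1, the first variable exon of the gamma cluster, had 10.3, 5.81 and 5.45 TPM in libraries labelled KO in EBSS and 5.91, 7.82 and 7.22 TPM in KO libraries in full medium. It had 3.10, 3.15 and 3.25 TPM in libraries labelled wildtype in EBSS and 6.78, 6.22 and 5.86 TPM in wildtype libraries in full medium. Its KO and wildtype libraries in full medium overlapped.

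Smaller gamma members with large changes followed the pattern of Pcdhgb6 in full medium. Pcdhgb8 had 0.0575, 0.237 and 0.326 TPM in KO libraries in full medium, against 2.07, 2.30 and 2.63 TPM in wildtype libraries. In EBSS Pcdhgb8 had 2.57, 1.95 and 2.18 TPM in libraries labelled KO, against 0.0255, 0.0237 and a listed 0 in those labelled wildtype. Neither medium showed an overlap for Pcdhgb8. Pcdhga5 had 0.550, 0.546 and 0.405 TPM in KO libraries in full medium, against 2.68, 3.07 and 2.74 TPM in wildtype libraries. In EBSS Pcdhga5 had 3.54, 3.60 and 3.24 TPM in libraries labelled KO, against 0.723, 0.330 and 3.22 TPM in those labelled wildtype, where replicate 3 reached the level of the other label. Pcdhga6 had 0.429, 1.23 and 1.07 TPM in KO libraries in full medium, against 3.24, 3.62 and 3.54 TPM in wildtype libraries. In EBSS Pcdhga6 had 3.96, 3.23 and 3.57 TPM in libraries labelled KO, against 0.396, 0.595 and a listed 0 in those labelled wildtype.

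In the beta cluster, the signal came from members at the end that lies nearest the gamma cluster. Pcdhb22 (RefSeq start 37518353) had 2.77, 4.10 and 4.96 TPM in libraries labelled KO in EBSS and 1.61, 2.74 and 2.45 TPM in KO libraries in full medium. It had 0.502, 0.140 and 0.0597 TPM in libraries labelled wildtype in EBSS and 4.86, 4.99 and 4.48 TPM in wildtype libraries in full medium. The groups in full medium did not overlap. Pcdhb17 had 0.940, 1.76 and 2.01 TPM in KO libraries in full medium, against 3.83, 4.02 and 4.32 TPM in wildtype libraries. In EBSS Pcdhb17 had 2.89, 4.49 and 4.05 TPM in libraries labelled KO, against 1.36, 1.04 and 2.85 TPM in those labelled wildtype, so the lowest and highest of the labels nearly met. Pcdhb20 had 0.859, 1.08 and 1.16 TPM in KO libraries in full medium, against 1.52, 1.49 and 1.62 TPM in wildtype libraries. In EBSS Pcdhb20 had 1.15, 1.62 and 1.59 TPM in libraries labelled KO, against 0.632, 0.335 and a listed 0 in those labelled wildtype. Pcdhb16 had 0.215, 0.510 and 0.479 TPM in KO libraries in full medium, against 1.26, 1.17 and 1.22 TPM in wildtype libraries. In EBSS Pcdhb16 had 0.493, 0.954 and 0.921 TPM in libraries labelled KO, against 0.186, 0.0663 and 0.0342 TPM in those labelled wildtype. The 17 beta members that were not tested had at most 1.07 TPM, the value of Pcdhb19 in replicate 3 of the libraries labelled wildtype in EBSS.

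**Figure D2:**
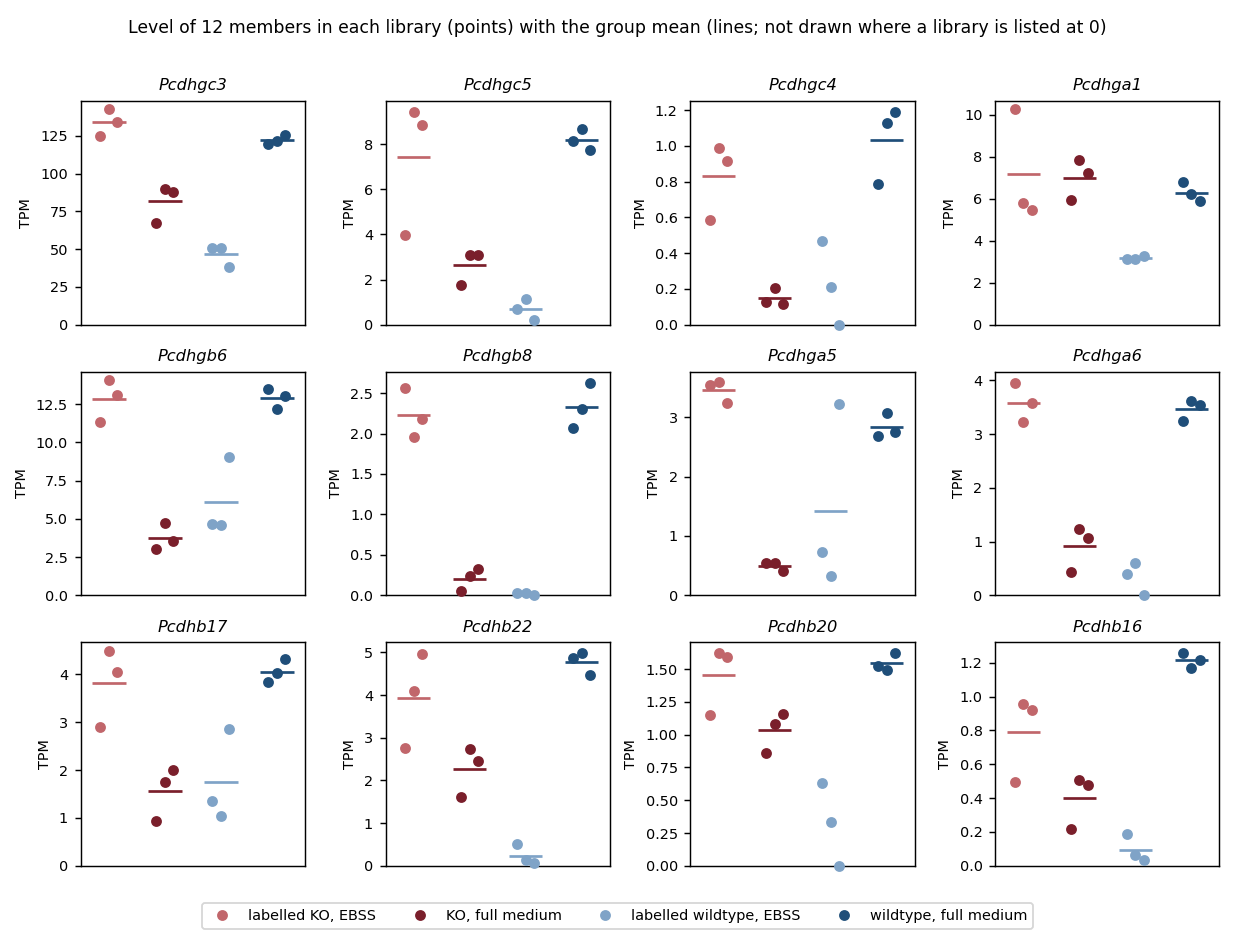
Level in TPM (vertical axes, each from 0) of 12 members in each library, with points for libraries and lines for group means (none where a library is listed at 0). In full medium Pcdhgb8 lies at 0.0575 to 0.326 TPM in KO libraries and at 2.07 to 2.63 TPM in wildtype libraries, while the Pcdhga1 points of KO and wildtype libraries overlap.

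These values rest on reads that members partly share. In the GENCODE vM21 annotation, 57 of the 58 symbols were found, and the gamma members had 4 exons each, of which 3 were common to the cluster. The common exons came to a median of 2119 bases of a median transcript length of 4721.5 bases. Of all 31-base words in a gamma transcript, a median of 53.6% occurred in no other clustered protocadherin, with a range of 42.1% to 76.2%. The beta members were single-exon genes in 22 of 22 cases, and a median of 88.2% of their words were their own. Reads from the constant exons are shared out among gamma members by Salmon's estimation, so the split of the gamma sum between members is less certain than the sum. Pcdhb21 and Pcdhb22 overlap by 455 bases in that annotation, and their reads may be shared there.

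In full medium, the question was whether clustered protocadherin RNA differed between KO and wildtype cells. It was lower in KO cells in both expressed clusters. The gamma sum was 103 ± 15.7 TPM in KO libraries, against 173 ± 3.34 TPM in wildtype libraries (SD, n = 3 each), a ratio of 0.594. The beta sum was 6.86 ± 1.79 TPM in KO libraries, against 16.5 ± 0.305 TPM in wildtype libraries, a ratio of 0.415. Within the gamma cluster the ratio was 0.327 for the type B sum, 0.563 for the type A sum and 0.642 for the C-type sum. In bulk RNA, fewer cells that express a member and less RNA of it per cell cannot be told apart.

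Of the 19 members tested, 15 fell and 0 rose in KO cells in full medium (limma on log2(TPM + 1), Benjamini-Hochberg adjusted over 12653 genes, threshold 0.05). At an unadjusted p under 0.05 the limma counts were also 15 and 0. Across all genes tested, 35.8% were called lower and 20.1% higher. The members' median log2 change was -0.80, beside -0.17 for all genes. After median-of-ratios scaling, which sets the typical gene to no change, 14 members fell and 0 rose, beside 27% of all genes lower and 26.7% higher, and the medians were -0.66 for the members and 0.01 for all genes. Quantile normalization, which gives all libraries the same distribution, gave 8 members lower and 2 higher, beside 26.1% and 27.6% of all genes, and the 2 were Pcdhga1 and Pcdhgb2. The 15 were 4 of 5 beta, 4 of 6 gamma A, 5 of 6 gamma B and 2 of 2 C-type members. A member had to reach 1 TPM in 3 libraries to be tested. Of the 19, 7 reached 1 TPM in no KO library in full medium and no library labelled wildtype in EBSS. Pcdhga5, Pcdhga7 and Pcdhgb4 also reached it in no KO library in full medium. All of these members passed through groups where they were high, so the count is a description and does not stand for all 58. Without the filter, 30 of 51 members with any signal were called lower and 0 higher, beside 24.1% and 15.7% of 20258 genes. Of those 51, the KO mean was the lower in 47, including all 22 beta members, and the higher in 4. The share of all genes with a lower KO mean was not counted. Of the 58 members, 30 stayed below 0.5 TPM in every library, so many of these directions rest on values near 0.

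Pcdhgb6 had the largest fall in KO cells in full medium on the log2(TPM + 1) scale, at -1.56 (SE 0.22, limma adjusted p = 0.00012), and its KO mean was 29.2% of the wildtype mean. Pcdhgb8 fell by 1.47 on the same scale (SE 0.13, limma adjusted p = 4e-06), to 8.9% of the wildtype mean. Pcdhgc5 fell by 1.35 (SE 0.30, limma adjusted p = 0.0025), to 32.4% of the wildtype mean. Pcdhga5, Pcdhga6 and Pcdhgb4 also fell by more than 1 log2 unit, at -1.35, -1.25 and -1.07. The added 1 in the scale shrinks the change of low members. Pcdhgb1, for example, was listed at 0 in replicate 1 of the KO libraries and had 0.0330 and 0.135 TPM in the others, against 0.904, 0.896 and 0.843 TPM in wildtype libraries, and its log2 change was only -0.83.

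The abundant Pcdhgc3 fell by 0.59 (SE 0.13, limma adjusted p = 0.0028), to 66.8% of the wildtype mean. Among the beta members Pcdhb17 fell by 1.00, and Pcdhb22, Pcdhb21 and Pcdhb16 had log2 changes of -0.84, -0.77 and -0.67. The other called members, Pcdhga7, Pcdhga12 and Pcdhgb7, lay between -0.80 and -0.75. Pcdhga7 lost its call under median-of-ratios scaling, where its change was -0.66, and Pcdhb22 lost its call with a pseudocount of 0.1, where its change was -1.08.

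The 4 members without a call in full medium were Pcdhga1, Pcdhga3, Pcdhgb2 and Pcdhb20. They were named after their values were seen. Pcdhga1 had a log2 change of 0.13 (SE 0.20, limma adjusted p = 0.61) and Pcdhgb2 one of 0.42 (SE 0.21, limma adjusted p = 0.11). Pcdhgb2 had 1.82, 2.17 and 1.86 TPM in KO libraries, against 1.24, 1.06 and 1.30 TPM in wildtype libraries, with no overlap. It was called higher when replicate 2 or replicate 3 of the libraries labelled wildtype in EBSS was left out of the fit (limma adjusted p = 0.039 and 0.021), although those libraries do not enter the difference itself. Pcdhga3 and Pcdhb20 had log2 changes of -0.23 and -0.33 (limma adjusted p = 0.11 and 0.13), and Pcdhb20 was called lower without replicate 3 of the same group (limma adjusted p = 0.028). Except for Pcdhb20, these members lie among the first 6 variable exons of the gamma cluster. Pcdhgb1, which fell, lies between Pcdhga3 and Pcdhgb2. Pcdhga2 and Pcdhga4, also among the first 6, were not tested, and their KO means were 54.9% and 27.3% of the wildtype means.

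The mix of gamma members therefore differed between KO and wildtype cells in full medium, in quantities that do not depend on how libraries are scaled. Gamma A and B members together gave 18.1%, 18.1% and 17.4% of the gamma sum in KO libraries, against 24.5%, 23.7% and 23.7% in wildtype libraries. Pcdhga1 gave 38.6%, 38.0% and 37.9% of the gamma A and B sum in KO libraries, against 16.3%, 15.2% and 14.0% in wildtype libraries. Pcdhgb6 gave 19.8%, 22.9% and 18.7% of it in KO libraries, against 32.6%, 29.7% and 31.2% in wildtype libraries. Pcdhgc5 stood at 2.59%, 3.46% and 3.55% of the Pcdhgc3 level in KO libraries, against 6.84%, 7.12% and 6.18% in wildtype libraries. In none of these shares did KO and wildtype libraries overlap. They depend on how reads from the constant exons were shared out.

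**Figure D3:**
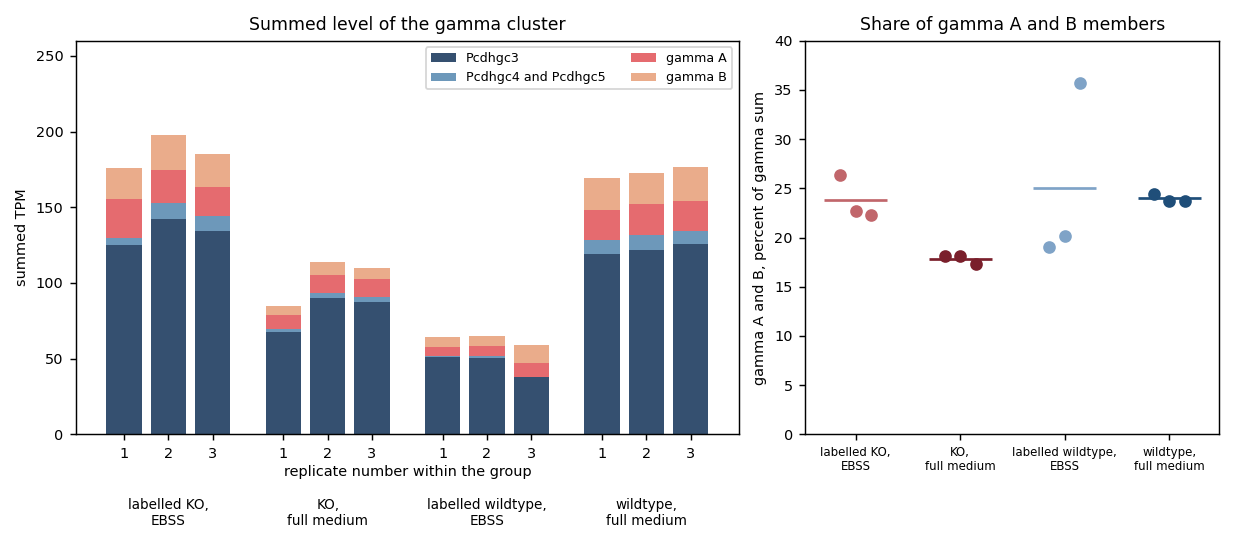
Left, summed TPM of the gamma cluster in each library (bars from 0, stacked by Pcdhgc3, the other C-type members, gamma A and gamma B). Right, gamma A and B members as a percent of the gamma sum in each library (points) with the group mean (lines), at 17.4% to 18.1% in KO libraries and 23.7% to 24.5% in wildtype libraries in full medium.

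In EBSS, the labels ran the other way. The gamma sum was 186 ± 11.2 TPM in libraries labelled KO, against 62.9 ± 3.26 TPM in those labelled wildtype, and the beta sum was 13.7 ± 3.36 TPM, against 3.29 ± 0.965 TPM (SD, n = 3 each). Of the 19 members tested, 18 were called higher and 0 lower in libraries labelled KO, beside 71.9% of all genes higher and 8.58% lower. Of the 19, 7 reached 1 TPM only in wildtype libraries in full medium and libraries labelled KO in EBSS. Pcdhb20, Pcdhb22, Pcdhga6 and Pcdhgb2 also reached it in no library labelled wildtype in EBSS. All of these members passed the filter through groups where they were high, so the count is a description. The members' median log2 change was 1.01, beside 0.91 for all genes, and with a pseudocount of 0.1 in place of 1 these were 2.21 and 1.08. After median-of-ratios scaling 11 members were called higher and 0 lower, beside 34.6% and 29.2% of all genes, and the medians were 0.56 for the members and 0.09 for all genes. In these libraries the TPM of Rbbp5 goes against the labels, and the direction of every member is between labels only.

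The largest rises in EBSS were those of Pcdhgc5 at 2.29 (SE 0.30, limma adjusted p = 2.6e-05), Pcdhb22 at 1.99 (SE 0.20, limma adjusted p = 3.8e-06) and Pcdhga6 at 1.81 (SE 0.20, limma adjusted p = 7.4e-06), all as log2 changes of TPM + 1 in libraries labelled KO over those labelled wildtype. Pcdhgc3 rose by 1.52 (SE 0.13, limma adjusted p = 1.1e-06). Pcdhga7 was not called, with 1.58, 1.44 and 1.27 TPM in libraries labelled KO, against 0.480, 0.943 and 2.39 TPM in those labelled wildtype. Replicate 3 of the libraries labelled wildtype decided that. Without it, Pcdhga7 was called higher at 0.52 (limma adjusted p = 0.0023), while its change was -0.36 after median-of-ratios scaling. Without the same library the change of Pcdhgb4 was 1.06 in place of 0.67, and that of Pcdhgb2 was 0.43 in place of 0.67. Pcdhgb4 lost its call when replicate 1 or replicate 2 of either label in EBSS was left out, with changes of 0.47 to 0.65.

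Between media, the libraries labelled wildtype had less clustered protocadherin RNA in EBSS than in full medium. In this comparison 17 of the 19 members fell and 0 rose in EBSS, beside 71.8% of all genes lower and 9.25% higher, with a median of -0.99 for the members and -0.94 for all genes. With a pseudocount of 0.1 these medians were -2.33 and -1.12. After median-of-ratios scaling 11 members fell and 0 rose, beside 35.4% of all genes lower and 30.7% higher, with medians of -0.55 for the members and -0.09 for all genes. The same 7 members, with Pcdhb20, Pcdhb22, Pcdhga6 and Pcdhgb2, reached 1 TPM in no library labelled wildtype in EBSS. These counts are therefore descriptions. The largest falls were those of Pcdhgc5 at -2.49 (SE 0.30, limma adjusted p = 1.2e-05), Pcdhb22 at -2.24 (SE 0.20, limma adjusted p = 1.4e-06) and Pcdhga6 at -1.77 (SE 0.20, limma adjusted p = 8.1e-06). Pcdhga7 at -0.17 and Pcdhgb4 at -0.57 were not called, and both were called lower without replicate 3 of the libraries labelled wildtype in EBSS, at -0.50 and -0.96. Pcdhga5 was called at -0.84. It was -1.34 without that replicate, -0.50 without replicate 2, and it lost its call when any of the 5 libraries of the comparison other than replicate 3 in EBSS was left out. Pcdhgb2 was at -0.65, and at -0.41 without replicate 3. This comparison shares the wildtype libraries in full medium with the KO comparison above.

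The libraries labelled KO had more clustered protocadherin RNA in EBSS than KO libraries had in full medium. Here 14 of the 19 members rose and 0 fell in EBSS, beside 33.3% of all genes higher and 20.9% lower, and the members' median was 0.82, beside 0.13 for all genes. After median-of-ratios scaling 12 members rose and 0 fell, beside 26.2% of all genes higher and 25.8% lower, with medians of 0.69 for the members and 0.00 for all genes. The same 7 members, with Pcdhga5, Pcdhga7 and Pcdhgb4, reached 1 TPM in no KO library in full medium, so these counts are descriptions. The largest rises were those of Pcdhga5 at 1.57 (SE 0.32, limma adjusted p = 0.0017), Pcdhgb6 at 1.55 (SE 0.22, limma adjusted p = 0.00013) and Pcdhgb8 at 1.42 (SE 0.13, limma adjusted p = 5.3e-06). Pcdhgc3 rose by 0.72 (SE 0.13, limma adjusted p = 0.00082). Pcdhb16, Pcdhb20, Pcdhga1, Pcdhga3 and Pcdhgb2 were not called, at 0.35, 0.27, -0.01, 0.27 and -0.40. Rbbp5 rose by 1.54 in the same comparison, against what the KO label of the EBSS libraries says.

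Replicate 1 of the libraries labelled KO in EBSS was low for several beta and C-type members, with a beta sum of 9.79 TPM beside 15.7 and 15.6 TPM in its partners. Nes, a progenitor marker, was at 52.5 TPM in that library, beside 160 and 163 TPM. Without it Pcdhb16 and Pcdhga3 were called higher in EBSS under the KO label, at 0.47 and 0.32. Both were also called when replicate 3 of the libraries labelled wildtype in EBSS was left out of the fit, and Pcdhgb2 was called lower without replicate 2 or 3 of that group. Pcdhb22 rose by 0.59 with all libraries and lost its call without replicate 1 or 3 in full medium or replicate 2 or 3 in EBSS, at 0.44 to 0.64. With both this library and replicate 3 of those labelled wildtype in EBSS left out, a choice made after seeing the data, 17 members rose and 0 fell between media in libraries labelled KO, beside 41.6% of all genes higher and 30.7% lower.

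**Figure D4:**
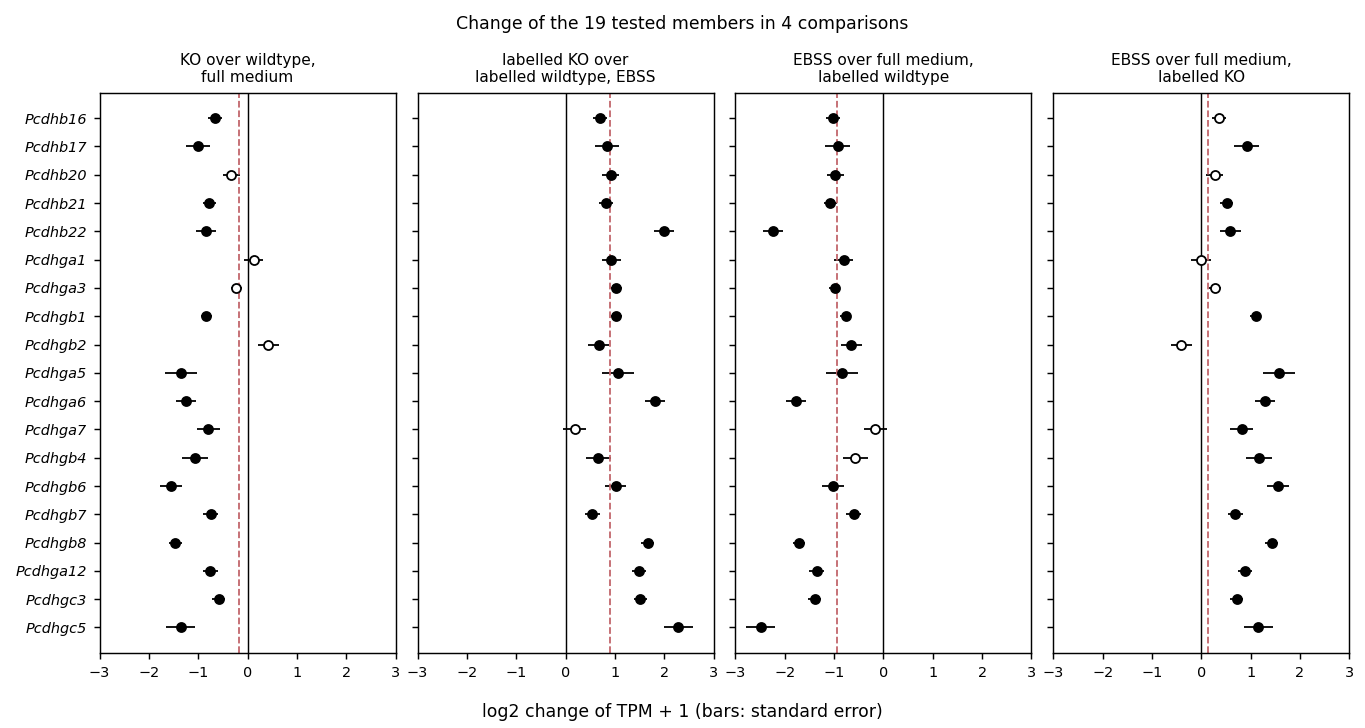
Log2 change of TPM + 1 (horizontal axes, points with standard errors) of the 19 tested members in 4 comparisons, with filled points for members past the threshold and open points for the others. The dashed line is the median of all 12653 genes, at -0.17, 0.91, -0.94 and 0.13 from left to right, and the members range from 0.18 to 2.29 in the panel on EBSS labels and from -2.49 to -0.17 in the panel on the wildtype label.

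The difference between the KO effects in EBSS and in full medium was tested as an interaction. In it 18 members were called higher and 0 lower, beside 64.2% of all genes higher and 12.5% lower. The members' median was 1.85, beside 1.06 for all genes. After median-of-ratios scaling 15 were called higher and 0 lower, beside 34% of all genes higher and 32.8% lower, with medians of 1.06 for the members and 0.05 for all genes. The 7 members that reached 1 TPM only in wildtype libraries in full medium and libraries labelled KO in EBSS passed the filter through the groups that raise this term, so its count is a description. Pcdhgc5 at 3.64, Pcdhgb8 at 3.13 and Pcdhga6 at 3.06 had the largest values. Pcdhgb2 alone was not called, at 0.25. Pcdhga1 was called at 0.80 and lost its call without replicate 1 of the KO libraries in full medium, at 0.70, and its sign under median-of-ratios scaling, at -0.15. Since the TPM of Rbbp5 goes against the labels in EBSS, the medium and the doubt about the labels cannot be told apart in this term.

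The order of the 19 tested members was compared between libraries as a description. Spearman's rho was 0.977 to 0.979 between wildtype libraries in full medium and 0.949 to 0.982 between KO libraries in full medium. Between KO and wildtype libraries in full medium it was 0.670 to 0.804 over 9 pairs. Libraries labelled KO in EBSS ranked the members much as wildtype libraries in full medium did, with a rho of 0.896 to 0.968. They were less like KO libraries in full medium, at 0.582 to 0.826. Libraries labelled wildtype in EBSS gave a rho of 0.404 to 0.746 with KO libraries in full medium, 0.522 to 0.777 with wildtype libraries in full medium and only 0.642 to 0.830 among themselves. The points of each value are the same 19 members, which share constant-exon reads. Of these, 7 reached 1 TPM only in wildtype libraries in full medium and libraries labelled KO in EBSS. The filter thus favoured members that were high in both of those groups, and a rho over all genes was not computed.

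Protocadherins outside these arrays, which share no constant exons with them, were read beside them. Of 12 listed, 6 were tested, and all 6 fell in KO cells in full medium, beside 35.8% of all genes. Pcdh7 fell by 2.85 (SE 0.32, limma adjusted p = 2.1e-05), with 0.244, 0.298 and 0.419 TPM in KO libraries, against 7.98, 8.92 and 8.66 TPM in wildtype libraries. Pcdh19, an X-linked adhesion gene linked to epilepsy in humans, fell by 2.20, Pcdh10 by 1.66 and Pcdh9 by 1.39. Their median was -1.53, beside -0.80 for the clustered members. In EBSS all 6 were called higher in libraries labelled KO, beside 71.9% of all genes, and 5 rose between media in libraries labelled KO, beside 33.3% of all genes. Of the 6, Pcdh1, Pcdh7, Pcdh9 and Pcdh10 reached 1 TPM only in wildtype libraries in full medium and libraries labelled KO in EBSS. They passed the filter through groups where they were high, so the counts and the median are descriptions.

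Genes that are known to act on the clusters were read in the same way. Of 23 tested regulators, 15 fell, 1 rose and 7 were not called in KO cells in full medium, beside 35.8% of all genes lower and 20.1% higher, and their median was -0.58, beside -0.17 for all genes. Dnmt3b, a DNA methyltransferase that marks these promoters, fell by 1.36 (SE 0.13, limma adjusted p = 7.5e-06). It had 0.228, 0.118 and 0.205 TPM in KO libraries, against 2.10, 2.09 and 1.94 TPM in wildtype libraries. Dnmt3b reached 1 TPM only in wildtype libraries in full medium and libraries labelled KO in EBSS. It thus passed the filter through groups where it was high. Dnmt1, which maintains DNA methylation, fell by 1.06. Stag1, a cohesin subunit, fell by 1.32, and Rest, a repressor of neuronal genes, fell by 1.00. Ctcf, whose protein binds the cluster promoters, had 51.5, 65.4 and 63.5 TPM in KO libraries, against 70.0, 68.8 and 71.9 TPM in wildtype libraries, and was not called at -0.23. Wiz, a zinc finger gene, was the only regulator that rose, at 0.63. In EBSS all 23 were called higher in libraries labelled KO, beside 71.9% of all genes.

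Among the genes that flank the clusters on chromosome 18, 17 were tested. In KO cells in full medium 7 rose, 6 fell and 4 were not called, with shares near or above the 20.1% higher and 35.8% lower of all genes, and their median was 0.24, beside -0.17 for all genes. Zmat2 rose by 1.08, with 147, 171 and 151 TPM in KO libraries, against 67.0, 78.8 and 74.0 TPM in wildtype libraries. Cd14, an innate immune receptor gene, fell by 1.54, Apbb3 by 0.97 and Pcdh1 by 0.82. Taf7, a TFIID subunit gene that lies between the beta and gamma clusters, rose by 0.61, and Diaph1, a formin gene beyond the gamma cluster, rose by 0.76.

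Of 20 tested binding and signalling partners of the proteins, 8 fell, 1 rose and 11 were not called in KO cells in full medium. The share that fell is near the 35.8% of all genes, and the share that rose is below the 20.1% of all genes. Wasf3, a WAVE complex gene of actin control, fell by 2.58, and Ptk2b, a focal adhesion family kinase, fell by 1.34. Prkca, a protein kinase C, fell by 1.00, and Marcks, a kinase C substrate, rose by 1.42, with 125, 151 and 132 TPM in KO libraries, against 50.3, 47.0 and 53.4 TPM in wildtype libraries.

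Markers of cell type also differed between groups, in different directions. The 12 fibroblast markers were all tested, and 10 fell and 0 rose in KO cells in full medium, beside 35.8% of all genes lower and 20.1% higher, with Col6a3 at -3.96 and Col3a1 at -3.88. Their summed level was 4439 to 5142 TPM in KO libraries, against 7405 to 7457 TPM in wildtype libraries. Of 13 neuron markers 3 were tested, Syp rose by 0.85, and the sum was 27.7 to 30.5 TPM in KO libraries, against 15.9 to 16.7 TPM in wildtype libraries. Most of that sum was Tubb3, which was not called, with 22.8, 23.7 and 21.3 TPM in KO libraries, against 11.7, 12.1 and 12.0 TPM in wildtype libraries. Other neuron markers were lower in KO libraries, such as Stmn2 with a mean of 0.288 TPM, against 0.622 TPM in wildtype libraries, and were not tested. Of 12 progenitor and glial markers 4 were tested, Sox2 fell by 1.83 and Nes by 1.38, and the sum was 53.8 to 60.4 TPM in KO libraries, against 137 to 150 TPM in wildtype libraries. In EBSS the fibroblast sum was 5608 to 7534 TPM in libraries labelled KO, against 3229 to 3631 TPM in those labelled wildtype. The progenitor and glial sum was 56.6 to 169 TPM in libraries labelled KO, against 32.7 to 37.7 TPM in those labelled wildtype, and the neuron sum was 16.7 to 48.2 TPM, against 24.7 to 33.9 TPM. No marker of the 3 lists was listed at 0 in all 12 libraries, and 5 of the 13 neuron markers and 5 of the 12 progenitor and glial markers reached 1 TPM in any library. The part of these changes in the protocadherin values was not tested.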

How the data were processed

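The authors deposited TPM per gene symbol for all 12 libraries in 1 table, and Salmon and mm10 are named per the submitters' processing notes. The Salmon version, annotation, strandedness and the summing of transcripts were not given in the sources used here. RNA was column-purified, DNase-treated poly(A) RNA, per the labels' protocols. Columns with no sample numbered 0. Each column summed to 92.3% to 99.4% of its full TPM scale over the symbols used. TPM gives no depth, so no count model was run.

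Genes with at least 1 TPM in at least 3 libraries (12653) were tested as log2(TPM + 1) with limma 3.58.1 (R 4.3.3), with 1 mean per group over all 12 libraries and a variance trend. P-values are two-sided and Benjamini-Hochberg adjusted, with a threshold of 0.05. Sums and shares were computed with Python 3.11.15 and pandas 2.3.3, and drawn with matplotlib 3.10.9. The procedure was tested on simulated data. Positions are from RefSeq for 58 of 58 members, and transcript structure is from GENCODE vM21.

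Values in every library are given for the 4 members of each cluster with the highest mean, for C-type members, and for the 3 largest called rises and falls per comparison. From each other list up to 4 called genes with the largest change are named. Further genes were named after their values were seen. Members and lists were chosen with earlier results of these data known. Alternatives were pseudocounts of 0.1 and 0.5, no filter, a mean of at least 5 TPM, 2 other scalings, smaller fits, a replicate block and libraries left out.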

Additional observations from a re-analysis of the deposited data

Results flagged for a closer look

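For 18 of the 19 tested members, the difference between KO and wildtype in EBSS was not the same as that in full medium by the interaction test over all genes (limma, adjusted p under 0.05). The values are the log2 change in EBSS minus that in full medium. Among gamma C-type members they were 3.64 for Pcdhgc5 and 2.10 for Pcdhgc3. Among gamma B members they were 3.13 for Pcdhgb8, 2.57 for Pcdhgb6, 1.86 for Pcdhgb1, 1.74 for Pcdhgb4 and 1.29 for Pcdhgb7. Among gamma A members they were 3.06 for Pcdhga6, 2.42 for Pcdhga5, 2.24 for Pcdhga12, 1.26 for Pcdhga3, 0.98 for Pcdhga7 and 0.80 for Pcdhga1. Among beta members they were 2.83 for Pcdhb22, 1.85 for Pcdhb17, 1.59 for Pcdhb21, 1.37 for Pcdhb16 and 1.24 for Pcdhb20. Rbbp5 had an interaction of 2.52, and its level in EBSS, in TPM, goes against the labels. Of all genes, 64.2% were called higher in this term. After median-of-ratios scaling 15 members were called higher, beside 34% of all genes, and Pcdhga1, Pcdhga7 and Pcdhgb4 lost their calls. Quantile normalization left 12 higher, beside 33.2% of all genes. Pcdhga1 was then called lower, at -0.68 (limma adjusted p = 0.033), beside 32.5% of all genes. Of the 19 members, 7 reached 1 TPM only in wildtype libraries in full medium and libraries labelled KO in EBSS, so they passed the filter through the groups that raise this term.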

How the results depend on the processing

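Over all genes and members, the replicate block changed no count of members: 15 fell in KO cells in full medium, 18 were called higher in EBSS, 17 fell and 14 rose between media, and 18 were called higher in the interaction. The shares of all genes were 35.1%, 71.4%, 71.4%, 32.7% and 63.8%, in the same order. Replicate numbers share only a name, since deviations of same-numbered libraries correlated by -0.073 to 0.079. Without the filter, 30 members fell in KO cells in full medium, 33 were higher in libraries labelled KO in EBSS, 32 fell between media under the wildtype label, 27 rose under the KO label and 34 were higher in the interaction, beside 24.1%, 49.8%, 48.9%, 23.3% and 44.7% of all genes. At a mean of at least 5 TPM the counts were 2, 3, 3, 2 and 3 of 3 members, beside 34%, 74.8%, 74.7%, 31.6% and 66.2% of all genes. Median-of-ratios scaling left 11 of 18 in EBSS and 11 of 17 between media under the wildtype label, beside 34.6% and 35.4% of all genes. Quantile normalization gave 2 higher and 8 lower in KO cells in full medium, 9 higher in EBSS, 10 lower under the wildtype label, 8 higher and 1 lower under the KO label, and 12 higher and 1 lower in the interaction. All-gene shares under it were 27.6% and 26.1%, then 34%, 35.3%, 25.4% and 28%, and 33.2% and 32.5%, in the same order. With the 6 libraries of a comparison alone, 15 members were higher in EBSS and 16 lower between media under the wildtype label. These counts stood beside 65.5% and 70% of all genes. In full medium 1 member was then higher and 17 lower in KO cells. Between media under the KO label 14 were higher and 1 lower. The shares of all genes for full medium and the KO label were 29.2%, 47.3%, 35.3% and 23.4%. With the group labelled wildtype in EBSS left out, these counts of members were 1, 16, 17 and 1, beside 25.4%, 42.6%, 40.2% and 26.6% of all genes. With both doubtful EBSS libraries left out, 1 member was higher and 17 lower in KO cells in full medium, beside 29.1% and 47.5% of all genes. Leaving out each library gave 0 to 1 higher and 15 to 16 lower in KO cells in full medium, 17 to 19 higher in EBSS, 16 to 19 lower under the wildtype label, 13 to 16 higher and 0 to 1 lower under the KO label, and 17 to 18 higher in the interaction. All-gene shares then ran, in the same order, over 16.5% to 25.4%, 30.5% to 42.7%, 69.6% to 74.3% and 68.7% to 73.9%. The rest ran over 27.9% to 40.3%, 17.1% to 26.3% and 61.7% to 67.5%. At 2 TPM, 13 members reached the level in place of 23.

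Sign changes came from another scaling or from values near 0. Under quantile normalization, Pcdhb20 and Pcdhga3 were at 0.020 and 0.047 in KO cells in full medium. In EBSS, Pcdhgb6, Pcdhb17, Pcdhga7, Pcdhga1 and Pcdhgb4 were then at -0.047, -0.12, -0.58, -0.17 and -0.18. Between media under the wildtype label, Pcdhgb6, Pcdhb17, Pcdhga7, Rbbp5, Pcdhga1 and Pcdhgb4 were then at 0.083, 0.052, 0.58, 0.049, 0.33 and 0.26. Under the KO label, Pcdhb20 and Pcdhga3 were at -0.074 and -0.022, and in the interaction Pcdhga7, Pcdhga1 and Pcdhgb2 were at -0.046, -0.68 and -0.57. Under median-of-ratios scaling, Pcdhga7 was at -0.36 in EBSS. Between media under the wildtype label, Pcdhga7, Pcdhga1 and Pcdhgb4 were at 0.39, 0.020 and 0.050, and in the interaction Pcdhga1 and Pcdhgb2 were at -0.15 and -0.18. With each library left out, Pcdhga7 ranged over -0.082 to 0.52 in EBSS and -0.50 to 0.099 between media under the wildtype label, the ends being without replicates 1 and 3 of the libraries labelled wildtype in EBSS. Under the KO label between media, Pcdhga1 ranged over -0.26 to 0.14. The causes were not tested. Low members are limited by an unknown depth.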
